A study of Lachancea kluyveri with 12 samples.

Results

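Sef1 is a zinc cluster transcription factor, a class of fungal protein that reads short DNA motifs through a zinc-bound domain. In Candida albicans it turns on iron uptake genes. Lachancea kluyveri, the yeast studied here, can ferment glucose, but glycerol has to be respired: it enters central metabolism as a triose phosphate, electrons pass to the mitochondrial respiratory chain, and sugar for the cell wall is made back through gluconeogenesis. The comparison of media asks where Sef1 sits when cells must respire, and the regions described here are the places where Sef1 was found in glycerol medium and not in glucose medium, outside 1 densely bound stretch of chromosome C.

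Tagged Sef1 was profiled by chromatin immunoprecipitation and sequencing (ChIP-seq) in the strain SkSef1TAPNB1-1, whose SEF1-TAP allele adds an affinity handle to the protein, so that it can be pulled down together with crosslinked DNA. All cells were grown overnight in YPD, a rich medium with glucose, and diluted into YPGly, the same base with glycerol, or into fresh YPD for 5.5 h at 30 °C. Cells were fixed with 1% formaldehyde for 20 min, at 0.5 OD600 per ml in YPGly and 1 OD600 per ml in YPD. Each medium had 3 ChIP libraries, described by the study as biological replicates, each with its own input library. Every binding profile thus came from 1 tagged strain, and the density at fixation differed with the medium.

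A region was built by joining the called intervals of the 6 ChIP lists that shared 1 bp or more. A region was kept when all 3 YPGly lists held an interval in it and no YPD list did, and when its centre did not lie in the first 1 Mb of chromosome C. Of 1343 regions in all, 454 met the first condition, which is 33.8%, and 256 of these lay outside the chromosome C stretch. These 256 YPGly-only regions are 27.9% of the 918 regions outside that stretch and 51.1% of the 501 regions that all 3 YPGly lists held there. A further 200 regions outside the stretch were called in all 6 libraries and 86 were YPD-only. The call in each medium chose the regions, so the YPGly folds and the YPD distances below describe them and carry no test. A region not called in YPD may be unbound there or below detection. The number depends on the length of the lists: with every list reduced to 442 positions 98 regions met the rule, and with only peaks whose lower bound of fold was at least 2 there were 170. The centre of such a region fell in 95 of the 256 in the first case and in 123 in the second, and in all 20 of the strongest in both. Both settings only remove calls, so a region whose YPGly peaks are kept stays YPGly-only. That the strongest stayed follows largely from this and is no test of them.

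The YPGly lists held 999, 959 and 935 positions, and the YPD lists held 479, 442 and 449. Fold enrichment below is the ratio of ChIP over input signal that the peak caller estimated at a position. The lists record no read depth for a library, and the study's methods give only a nominal depth for the sequencing, so the error given is the SD over the 3 YPGly libraries. The lowest fold that any YPD list called was 1.10, and 155, 142 and 132 positions of YPD replicates 1, 2 and 3 lay under a fold of 2. In YPGly replicates 1, 2 and 3 such positions numbered 332, 387 and 347. Whether weak positions were detected equally well in both media was not tested.

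The YPGly-only regions were mostly of moderate fold, with a short tail of strong ones. Their mean YPGly fold had a median of 2.35, with quartiles of 1.71 and 4.12, and it ran from 1.01 to 52.9. A mean fold of at least 5 was reached by 46 regions and one of at least 10 by 11, whereas 98 lay under 2 and 48 of these under 1.5. The 200 regions called in all 6 libraries had a median of 5.51 in the same YPGly libraries and 3.24 in YPD. Among the 50 highest folds of each YPGly list, 5 belonged to YPGly-only regions outside the stretch, and the best of them ranked 11th, 13th and 13th in replicates 1, 2 and 3. The other YPGly-only set, the 198 regions on the chromosome C stretch, had a lower median of 1.82 and a highest fold of 14.3.

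**Figure D1:**
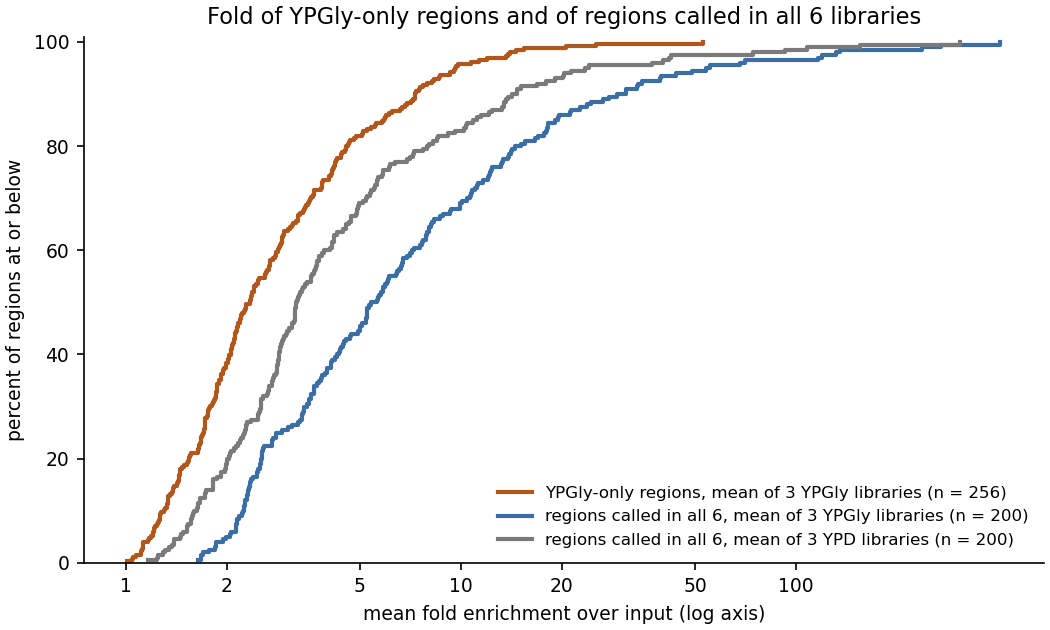
Cumulative percent of regions (y axis) at or below a mean fold over input (x axis, log scale), for the 256 YPGly-only regions in the 3 YPGly libraries and for the 200 regions called in all 6 libraries in YPGly and in YPD. The curve of the YPGly-only regions lies left of both others, with a median of 2.35 against 5.51 in YPGly and 3.24 in YPD, and its tail ends at 52.9.

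Replicates differed little in fold. The coefficient of variation of a region's 3 YPGly folds had a median of 7.94%, close to the 7.84% of the regions called in all 6 libraries, and its highest value was 22.1%. YPGly replicate 1 gave the highest fold of the 3 in 205 of the 256 regions, with library medians of 2.53, 2.23 and 2.18 in replicates 1, 2 and 3. Regions called in all 6 libraries showed the same order at the top, with medians of 6.03, 5.33 and 5.28. The called position itself moved by a median of 15 bp between the 3 YPGly libraries. It moved by 8 bp in regions of mean fold at least 5 and by 20 bp in those under 2, and by more than 100 bp in 7 regions.

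The strongest of the regions lay at IDP3, named for the S. cerevisiae isocitrate dehydrogenase of the peroxisome that supplies NADPH for the breakdown of unsaturated fatty acids. Its folds were 57.6, 49.3 and 51.8 in YPGly replicates 1, 2 and 3, a mean of 52.9 ± 4.25 (SD, n = 3), at chromosome D 704814 to 705003. No YPD position lay within 16409 bp of its centre. The runner-up was at MDH2, the cytosolic malate dehydrogenase of S. cerevisiae that serves gluconeogenesis. There the folds were 26.6, 23.8 and 25.5 (25.3 ± 1.38, SD, n = 3) at chromosome C 1139249 to 1139438. In this case a YPD position of fold 1.15 lay 451 bp away, in a neighbouring region that is described further down.

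SFC1, ICL2, ALD4 and PCK1, genes from 3 of the lists described further down, stood at ranks 4, 5, 13 and 20. SFC1, which in S. cerevisiae exchanges succinate for fumarate across the inner mitochondrial membrane, had 16.5, 14.0 and 15.7 (15.4 ± 1.26, SD, n = 3) at chromosome F 1139804 to 1139993. ICL2, a mitochondrial 2-methylisocitrate lyase in S. cerevisiae, had 16.3, 13.9 and 13.5 (14.6 ± 1.49) at chromosome B 297120 to 297323. ALD4, the mitochondrial aldehyde dehydrogenase that makes acetate, had 9.84, 9.84 and 9.26 (9.65 ± 0.335) at chromosome D 1219845 to 1220034. The region between YIL152W and PCK1, the phosphoenolpyruvate carboxykinase that commits carbon to gluconeogenesis, had 8.64, 8.09 and 7.79 (8.17 ± 0.434) at chromosome E 1251389 to 1251578. At these 4 regions the nearest YPD position was 36984, 17100, 9642 and 15061 bp away, in the order given.

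The other regions among the 20 strongest lay at genes of various functions or at none. Regions at 2 different loci, both named for STP4, a zinc finger protein of S. cerevisiae, stood at ranks 3 and 8. The locus SAKL0H26224g had 23.1, 18.7 and 19.8 at chromosome H 2307549 to 2307738, and the locus SAKL0H03894g had 14.2, 13.3 and 13.2 at chromosome H 359918 to 360109. SMD2, a core protein of the spliceosome, had 15.0, 11.4 and 15.5 at chromosome A 723346 to 723535, with replicate 2 the lowest. FLC2, a membrane protein linked in S. cerevisiae to FAD transport, had 13.2, 12.8 and 9.83 at chromosome D 1203992 to 1204181, with replicate 3 the lowest. MNN4, which promotes phosphorylation of cell wall mannans, shared a region with SAKL0D12738g that had 11.2, 11.1 and 9.92 at chromosome D 1061586 to 1061789. FRE3, a ferric reductase, had 11.6, 8.36 and 9.46 at chromosome F 1193120 to 1193309, and its coefficient of variation of 16.9% was the widest of the 20.

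The remaining 8 of the 20 had mean folds between 8.34 and 13.8. They lay at SAKL0A10681g, SAKL0D15334g, YGR015C, MCM5 (a subunit of the replicative helicase), DNM1 (the GTPase that divides mitochondria) and at 3 places with no assigned gene. The strongest place without a gene was at chromosome A 950288 to 950477, with 13.5, 14.0 and 14.0 in the 3 YPGly replicates (13.8 ± 0.274, SD, n = 3). The next was at chromosome B 656799 to 656988, with 11.6, 11.4 and 10.9. The last of them, at chromosome E 568 to 757, sat at the start of the chromosome, 555 bp from a region called in all 6 libraries whose mean fold was 12.3 in YPGly and 14.2 in YPD. In that gene-less region replicate 1 was the lowest, at 8.46 against 9.94 and 10.3.

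**Figure D2:**
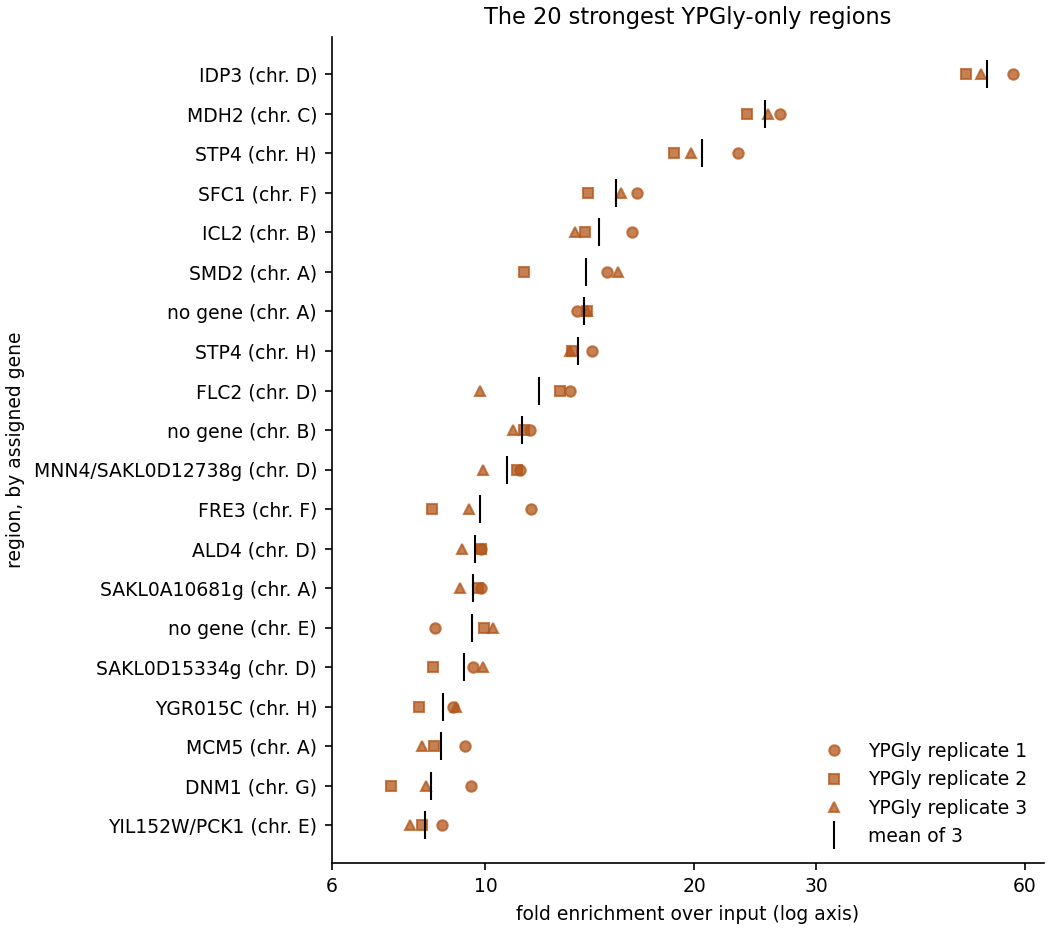
Fold over input (x axis, log scale) of the 20 YPGly-only regions of highest mean fold, 1 row per region labelled by its assigned gene and chromosome, with a symbol for each YPGly replicate and a bar for their mean. IDP3 stands alone at 52.9, MDH2 and STP4 follow at 25.3 and 20.5, and the other 17 lie between 8.17 and 15.4.

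A gene was assigned to 231 of the 256 regions, 22 of them with a second gene, and 25 had none within the distance the study allowed. The regions without a gene had a median fold of 2.69, above the 2.35 of the whole set. The centre lay within a coding sequence in 33 regions (12.9%), compared with 24 of the 200 called in all 6 libraries (12%). A second gene was present in 8.59% of the set and in 17% of the regions called in all 6 libraries, a difference that was not tested. The assigned genes numbered 214, which is 39.6% of the 541 genes assigned to any region that all 3 lists of a medium held outside the stretch. Of the 214, 24 also had a region called in all 6 libraries and 182 were assigned to no other kind of region that all 3 lists of a medium held outside the stretch.

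Genes were grouped by 11 lists of 210 genes in all, most of them of carbon metabolism, named after their S. cerevisiae counterparts. As the background, 39.1% of the 468 named genes with any region that all 3 lists of a medium held outside the stretch had a YPGly-only one, and the counts below are over genes with such a region. Loci that share a name count as 1 gene, and a gene with several kinds of region counts under each. A gene of some list was assigned to 66 of the 256 regions. Their median fold was 2.94, and that of the 190 other regions was 2.16.

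The glyoxylate shunt lets 2-carbon units feed sugar synthesis by skipping the steps that release carbon dioxide, and gluconeogenesis carries that carbon on to hexose. Of the 8 genes listed for both, 6 had a region outside the stretch and all 6 had a YPGly-only one. The 6 include ICL2, given above as a 2-methylisocitrate lyase and not as the isocitrate lyase of the shunt. Beside MDH2, SFC1, ICL2 and PCK1 these were ICL1, the isocitrate lyase of the shunt, with 4.53, 4.12 and 4.51 at chromosome F 673263 to 673575, and FBP1, the fructose-1,6-bisphosphatase, with 3.98, 3.49 and 3.27 at chromosome H 347529 to 347729. MDH2 alone of the 6 also had a region called in all 6 libraries. None of the 6 had a YPD-only region.

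The TCA cycle, which oxidises acetyl units in the mitochondrion, had the reverse counts. Of 21 genes, 17 had a region outside the stretch, 15 had one called in all 6 libraries and 4 had a YPGly-only one. The 4 were IDP3 and MDH2, which are in fact a peroxisomal and a cytosolic enzyme in S. cerevisiae, LSC1 and SDH3. LSC1, a subunit of succinyl-CoA ligase, had 1.98, 1.98 and 1.66. SDH3, a membrane anchor of succinate dehydrogenase, had 2.09, 1.66 and 1.60 at a region 711 bp from a region called in all 6 libraries at the same gene, where the mean fold was 27.7 in YPGly and 9.61 in YPD. The 2 mitochondrial genes were thus weak in this set.

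The list for the use of glycerol, lactate, ethanol and acetate had 12 of its 17 genes at a region, and 9 of these had a YPGly-only one, 4 had one called in all 6 libraries and 1 had a YPD-only one. The strongest after ALD4 was CYB2, the L-lactate dehydrogenase of the intermembrane space, with 8.71, 6.99 and 6.98 at chromosome G 1452413 to 1452602. ADH3, a mitochondrial alcohol dehydrogenase, had 7.53, 7.11 and 7.35 at chromosome B 698191 to 698380, and the YPD-only region lay at another locus of that name, SAKL0E02838g, with a mean YPD fold of 3.49. ATO3, named for a membrane protein of ammonium export, had 6.73, 7.68 and 6.26. GUT1, the glycerol kinase, and FPS1, the glycerol channel, shared a single region of 2.60, 2.29 and 2.27, so this pair of glycerol genes stood near the median of the set.

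Glycolysis, fermentation and hexose uptake, the routes of glucose use, had 14 of 29 genes at a region, 10 of them at a YPGly-only one, 4 at one called in all 6 libraries and 1, PDC1, also at a YPD-only one of another locus. TDH3, glyceraldehyde-3-phosphate dehydrogenase, stood at 7.80, 6.83 and 7.24 at the locus SAKL0H24926g. PFK2, a subunit of phosphofructokinase, had 7.56, 6.28 and 6.58. RGT2, a sensor of external glucose, had 4.90, 4.77 and 4.18, and HXK2, the main hexokinase, had 4.40, 4.73 and 4.01. These 4, named as the highest of the list, lay above the upper quartile of the set, and their nearest YPD positions were between 5140 and 18682 bp away. Over all 13 YPGly-only regions of the list the median fold was 3.42. The lowest, at PDC1, had a mean of 1.38 and a YPD position 451 bp away.

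Among regulators of the carbon source response, 5 of 6 genes with a region had a YPGly-only one and 2 had one called in all 6 libraries. ADR1, an activator of glucose-repressed genes, shared a region of 4.65, 4.41 and 4.45 with YKR070W. OAF1, which activates genes of peroxisomes and fatty acid oxidation, had 3.64, 2.99 and 3.19 and a second region of 2.25, 1.92 and 2.12. TYE7 and XBP1, a glycolytic activator and a stress repressor, had mean folds of 2.19 and 2.11. TYE7 and XBP1 lay 879 and 505 bp from a YPD position, whereas ADR1 and the OAF1 regions were at least 6321 bp away.

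Genes of mitochondrial function came from 3 lists. Of 8 respiratory chain and ATP synthase genes with a region, 5 had a YPGly-only one, 3 had one called in all 6 libraries and 2, COX13 and NDE2, had a YPD-only one. The YPGly-only ones were led by STF2, a stabiliser of the inhibited ATP synthase, at 8.34, 7.46 and 7.31. NDI1, the NADH dehydrogenase that S. cerevisiae has in place of complex I, shared a region of 8.13, 6.88 and 6.93 with DSS1. QCR6, of the cytochrome bc1 complex, and COX26, of cytochrome c oxidase, had means of 3.87 and 2.96. Of 7 mitochondrial carriers with a region, 4 had a YPGly-only one and 2 had one called in all 6 libraries. Beside SFC1, the citrate carrier CTP1 had 6.57, 5.71 and 6.05, the copper and phosphate carrier PIC2 had a mean of 2.47, and CTP1 and LEU5, the coenzyme A carrier, shared a region with a mean of 1.73. Pyruvate entry had 3 of 4 genes in the set, MPC2 of the pyruvate carrier at a mean of 2.97, and PDA1 and PDB1 of pyruvate dehydrogenase at 1.71 and 1.21. PDB1 stood below the lower quartile of the set, and 1 of the 4 had a region called in all 6 libraries.

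Of the fatty acid oxidation and carnitine list, 5 of 6 genes with a region had a YPGly-only one and 2 had one called in all 6 libraries, and after IDP3 and OAF1 the strongest was SPS19, a peroxisomal dienoyl-CoA reductase, at 3.47, 3.18 and 3.12. Iron uptake, the pathway of Sef1 in C. albicans, had 3 of 24 genes at a region outside the stretch. The share over all genes of the genome was not computed. All 3 had a YPGly-only region and none had one called in all 6 libraries. AFT1, the activator of the iron regulon in S. cerevisiae, had 4.42, 3.85 and 4.58 at chromosome A 419457 to 419646, and FTR1, the iron permease, had a pair of regions with means of 2.95 and 2.20. FRE3 was given above. Amino acid and ammonium uptake had 6 of 6 such genes in the set, 1 of them also at a region called in all 6 libraries, led by UGA4, the permease of GABA, at 8.19, 6.89 and 6.50, and PUT4, that of proline, at 4.68, 4.12 and 3.79. DIP5, the permease of acidic amino acids, had a pair of regions with means of 2.42 and 2.12. The counts were not tested against the 39.1% over all named genes, since the regions were chosen with results in view.

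**Figure D3:**
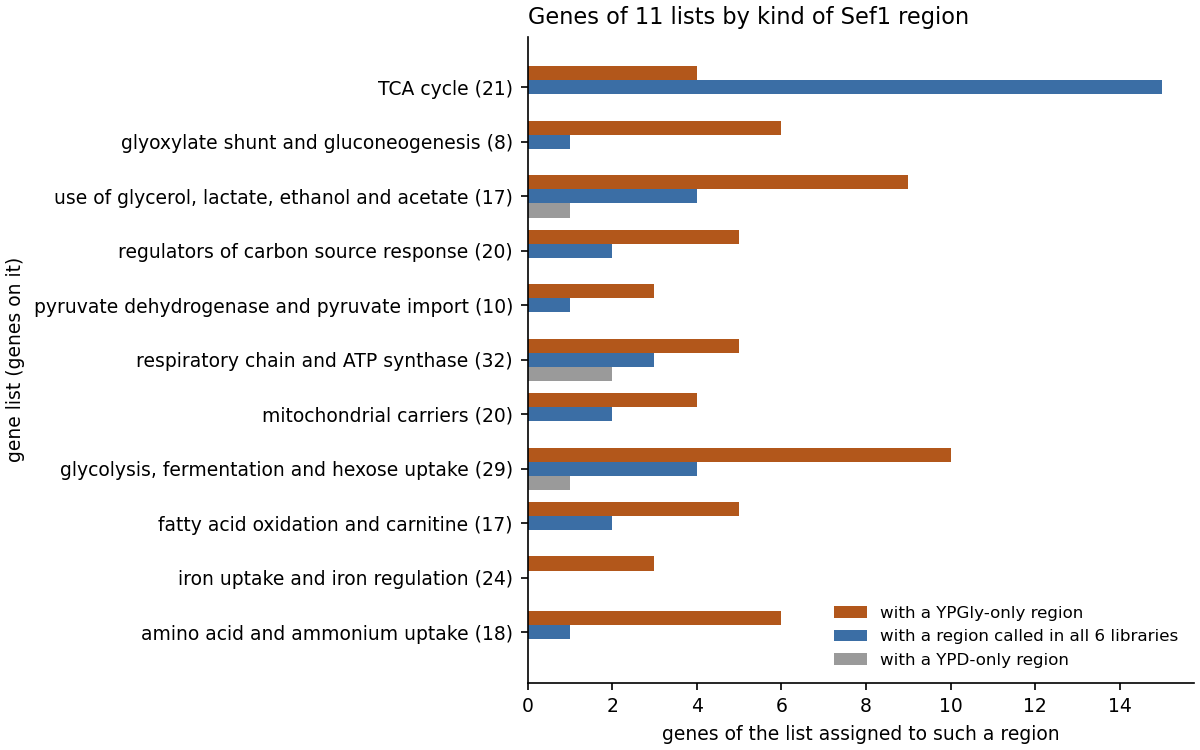
Number of genes (x axis) of each of 11 lists, with the list size in brackets, that were assigned to a YPGly-only region, a region called in all 6 libraries or a YPD-only region outside the chromosome C stretch. A gene with 2 kinds of region counts in both bars. The TCA cycle has 4 genes against 15, and glyoxylate shunt and gluconeogenesis has 6, ICL2 among them, against 1.

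YPGly-only regions were spread over all 8 chromosomes. Chromosome H held 54 and D held 44, and the part of C outside the stretch held 7. As a share of the regions held by all 3 YPGly lists, they were 63.8% on chromosome A (30 of 47, Wilson 95% interval 49.5 to 76.0%) and lay between 46.0% and 55% on the other 7. The interval of chromosome A includes the 51.1% of all chromosomes together, and it covers counting error only.

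These regions lay at widely varying distances from anything called in YPD. Whether they lay nearer or farther than randomly placed sites was not tested. The distance from the centre to the nearest position of any YPD list had a median of 5239 bp and ran from 192 bp to 135689 bp. It was over 10000 bp for 85 regions and over 50000 bp for 9, whereas 49 regions (19.1%) had a YPD position within 1000 bp and 19 had one within 500 bp. The median fold was 2.80 for the 49 near ones, 2.10 for the 122 at 1000 to 10000 bp and 2.93 for the 85 beyond, so neither the near nor the far regions were the weakest. Of the 46 regions of fold at least 5, 11 were near, 13 were at the middle distance and 22 were far. LYS14, named for an activator of lysine synthesis and seen to be far after its values were known, had a mean fold of 4.62 with no YPD position within 134780 bp.

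**Figure D4:**
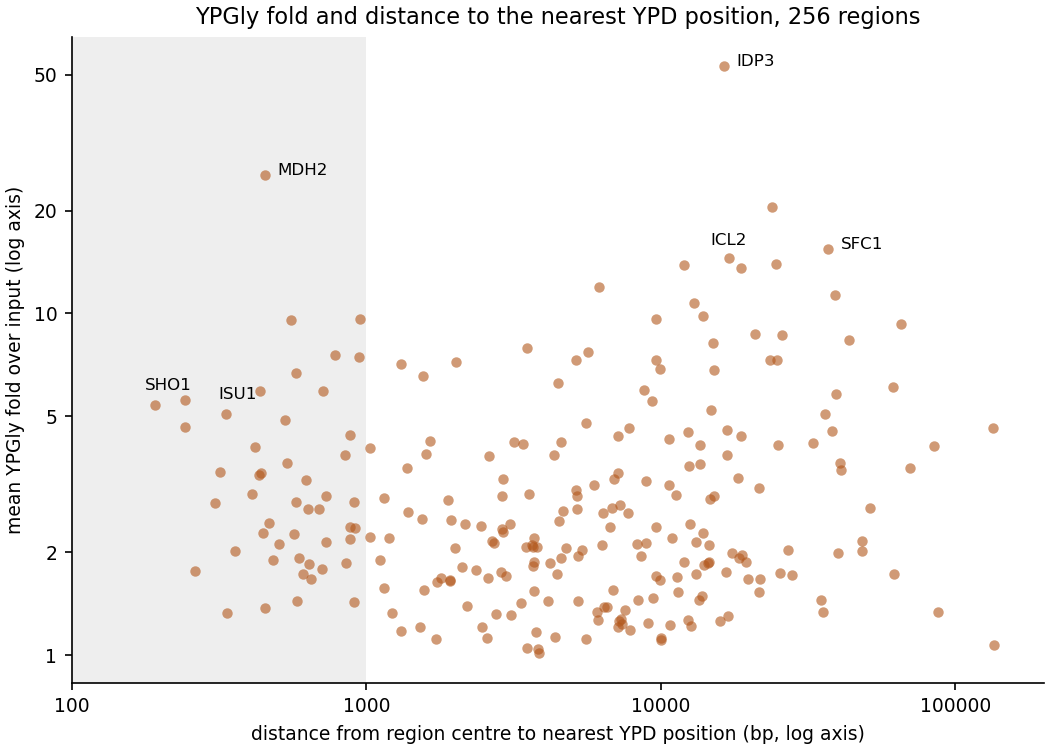
Mean YPGly fold over input (y axis, log scale) against the distance from the region's centre to the nearest YPD position (x axis, bp, log scale), 1 point per YPGly-only region. The 49 points in the grey band lie within 1000 bp of a YPD position, among them MDH2 at 451 bp, while IDP3 lies at 16409 bp and SFC1 at 36984 bp.

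The near group was described further by what the YPD call belonged to. For 29 of the 49, the nearest YPD position belonged to a region called in all 6 libraries, and for 1 to a YPD-only region. For the other 19, among them the SHO1 case below, it belonged to a region of neither kind. Over all 49, the nearest YPD position had a median fold of 2.66 and a range of 1.14 to 20.0, and 26 of the 49 regions had a higher YPGly fold than it. At SHO1, an osmosensor of the cell membrane, a region with YPGly folds of 5.66, 5.23 and 5.31 had a YPD position of fold 1.85 at 192 bp from its centre, the smallest distance in the set. Intervals were 170 or 190 bp wide, so calls that far apart in the media do not overlap and give separate regions.

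Regions called in all 6 libraries lay within 1000 bp of 31 of the 256 regions, and 26 of these 31 were weaker in YPGly than that neighbour. The neighbours numbered 27. Their median fold was 6.38 in YPGly and 2.89 in YPD, and the median ratio of the media was 1.88. The 173 regions called in all 6 libraries that had no such neighbour had 5.34 in YPGly and 3.29 in YPD, with a median ratio of 1.47. The contrast is the one that chose the regions, so the difference was not tested.

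The pairs with the strongest neighbours, named after their values were seen, had a strong summit shared by both media and a weaker flank in YPGly alone. ISU1, the scaffold on which iron-sulfur clusters are built, had a YPGly-only region of 5.53, 4.63 and 5.11 at chromosome H 634468 to 634657. The neighbour 336 bp away, at the same gene, had 39.8, 39.3 and 39.3 in YPGly and 12.8, 12.3 and 12.2 in YPD. At SPS19 the YPGly-only region of mean fold 3.25 lay 627 bp from a region of 55.5 in YPGly and 20.1 in YPD. At ADY2, an acetate transporter, a region of mean fold 33.4 in YPGly and 3.85 in YPD had a YPGly-only region on each side, of 2.81 at 583 bp and of 2.68, assigned to OPT2, at 686 bp. OM45, a protein of the mitochondrial outer membrane, had 3.40 at 440 bp from a region of 31.2 in YPGly and 3.21 in YPD. A second region called in all 6 libraries lay 277 bp from that neighbour, with 13.4 in YPGly and 2.54 in YPD. MDH2 went the other way: its YPGly-only region of 25.3 exceeded the region 405 bp away that was called in all 6 libraries, with a mean of 11.3 ± 0.330 in YPGly and 1.16 ± 0.0360 in YPD (SD, n = 3 each).

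YPGly-only regions also lay close to each other. Another region held by all 3 YPGly lists was within 1000 bp of 130 of the 256 (50.8%), compared with 68 of the 200 called in all 6 libraries (34%) and 89 of the 198 YPGly-only regions on the chromosome C stretch (44.9%). The shares depend on the length of the lists: with 442 positions in each they were 23.5% of 98 YPGly-only regions and 19.6% of 168 called in all 6 libraries, and with a lower bound of at least 2 they were 38.8% of 170 and 27.4% of 135. The difference was not tested. The nearest such region was itself YPGly-only for 95 of the 130. The spacing was most often between 300 and 400 bp, with 32 regions, and 25 lay between 400 and 500 bp and 22 between 500 and 600 bp. Positions of 1 library were never closer than 199 bp. A stronger region within 1000 bp was present for 81 of the 256, and these had a median fold of 2.14, with 2.39 in the others.

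Chained at up to 1000 bp between centres, 98 of the regions formed 42 clusters of YPGly-only regions, with 31 pairs, 8 clusters of 3 and 3 of 4, and 158 stood alone. The strongest regions of the 42 clusters had a median fold of 4.50, the 56 others 2.11 and the lone regions 2.13. The strongest exceeded the second strongest by a median factor of 1.65, and by at least 2 in 15 clusters, up to 11.4. The maximum is taken over several values in a cluster, so a higher median for the strongest follows in part from how they were picked.

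In 5 of the 11 clusters of 3 or 4, a single region stood at 2.5 times or more the fold of every other YPGly-only region in it. The MDH2 cluster on chromosome C spanned 1333 bp, with the region of 25.3 between one at TRM13 of 4.96, 4.30 and 4.73 and one at BXI1 of 4.61, 3.70 and 4.92. Between TRM13 and MDH2 also lay the region called in all 6 libraries, with a mean of 11.3 in YPGly. It is not YPGly-only, so the cluster and its factor leave it out. The STP4 cluster on chromosome H spanned 1710 bp, and all 4 of its regions were assigned to that gene. Its 3 weaker regions had mean folds of 1.67, 1.87 and 3.30 beside the 13.6 of the strongest. The PCK1 cluster on chromosome E had 2.28 and 1.86 at 1124 and 557 bp from the region of 8.17. The cluster of SAKL0G14927g on chromosome G had a region of 6.03, 6.48 and 6.21 and 3 others between 1.82 and 2.42, of which the farther pair was assigned to DIP5. PDH1, a putative 2-methylcitrate dehydratase of S. cerevisiae, had 5.80, 4.56 and 4.84 at its strongest region and means of 1.45 and 1.33 at the others.

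In the other 6 clusters the folds lay closer together. On chromosome A, SMD2 and MCM5, which are 1262 bp apart in their regions, had means of 14.0 and 8.63 with GAC1, a regulatory subunit of a protein phosphatase, at 4.12 between them. The SHO1 cluster had 3.84, 3.65 and 5.40 at the gene and 1.68 at a place without one. RGT2 had 3.42 and 4.62, next to YCR015C at 2.61. MOT3, a repressor and activator of transcription, had 3.49, 3.64 and 2.00, and the gaps between its regions exceeded the spread of replicates only for the last. OAF1 had 2.10 and 3.27 with TPO1, a polyamine transporter, at 1.34. SAKL0E04939g had 2.93 and 2.87, whose replicates overlap, with MRK1 at 1.84.

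**Figure D5:**
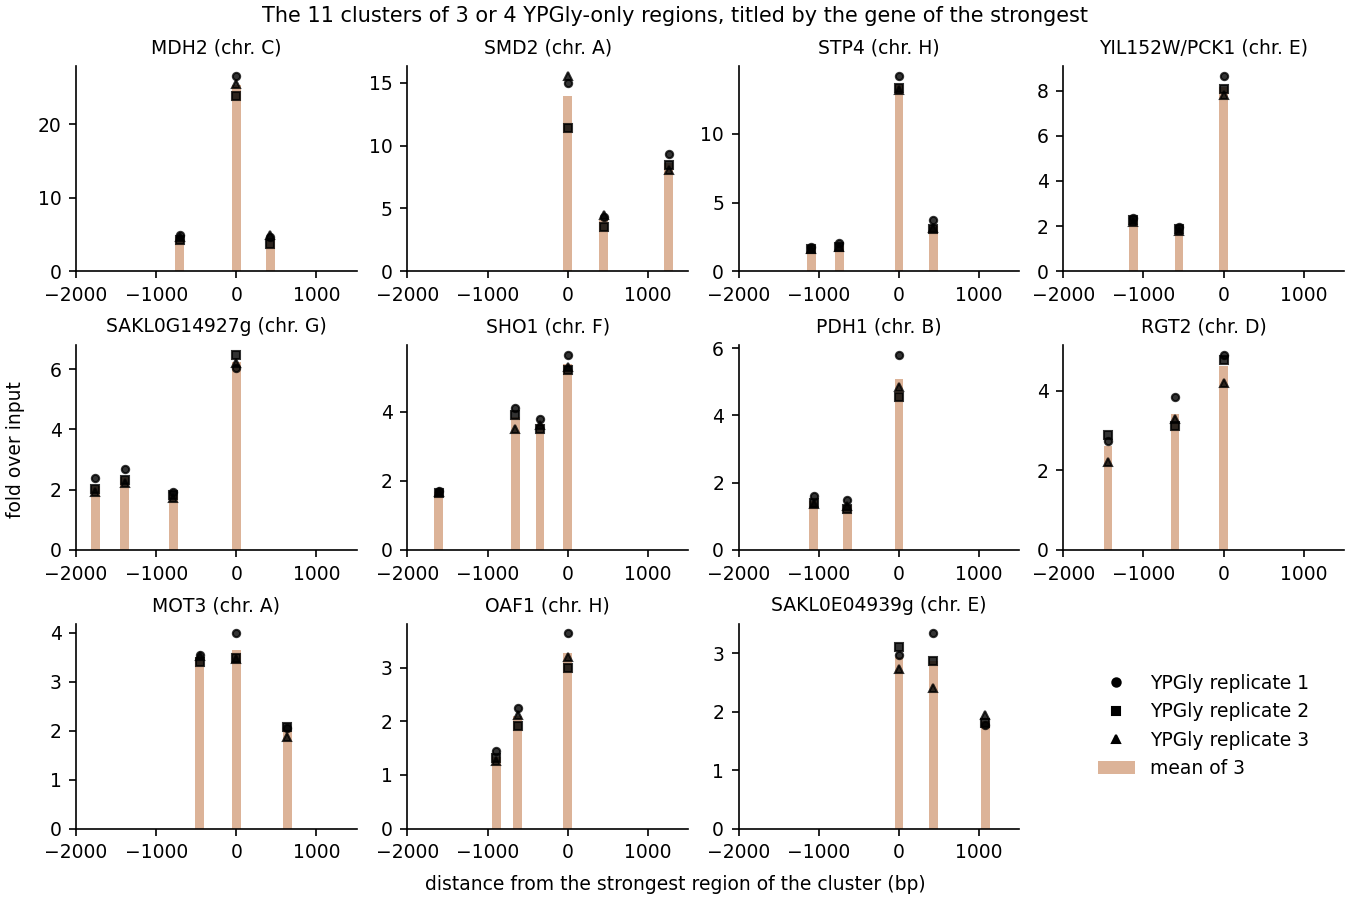
Fold over input (y axis) of each region in the 11 clusters of 3 or 4 YPGly-only regions, against its distance in bp from the strongest region of the cluster (x axis). Bars are means and symbols the 3 YPGly replicates. One region stands far above the other YPGly-only ones at MDH2 (25.3), STP4 (13.6) and PCK1 (8.17), while MOT3 and SAKL0E04939g have regions of similar height. Within the MDH2 cluster a region called in all 6 libraries, of 11.3 in YPGly, is not drawn.

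Each YPGly library in turn was set against the regions held by the other 2 YPGly lists and by no YPD list. Its own intervals had taken part in building the regions, and those called in it are always the 256 of the set. The shares therefore describe the set and are not an independent replication. Called in the other 2 YPGly lists and in no YPD list were 268 regions without replicate 1, and 256 of them were called in replicate 1 (95.5%, Wilson 95% interval 92.3 to 97.4%). Replicate 2 called 256 of 289 (88.6%, 84.4 to 91.8%) and replicate 3 called 256 of 294 (87.1%, 82.8 to 90.4%). The uncalled regions had median folds of 1.63, 1.71 and 1.77 in the libraries that chose them.

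The same was done for absence. The regions called here are those held by all 3 YPGly lists and 1 YPD list, described further down, so these shares restate the rule as well. Among regions held by all 3 YPGly lists and absent from 2 YPD lists, YPD replicate 1 called 20 of 276 (7.25%, Wilson 95% interval 4.74 to 10.9%), replicate 2 called 2 of 258 (0.775%, 0.213 to 2.78%) and replicate 3 called 5 of 261 (1.92%, 0.821 to 4.41%). Their median fold in that YPD library was 2.17, 2.05 and 1.54, in the order of the replicates. YPD replicate 1, the longest of the YPD lists, thus took away the most regions.

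At the weak edge of the set, the 5 regions of lowest fold lay close to the input level, which is a fold of 1. UBC8, an enzyme that marks fructose-1,6-bisphosphatase for breakdown in S. cerevisiae, had 1.10, 0.988 and 0.952, the lowest mean of all at 1.01. SAKL0A10714pg had 1.05, 1.02 and 1.06, and the region of MSB1 and SMM1 had 1.05, 1.03 and 1.07. A second CYB2 locus, SAKL0F16610g, had 1.11, 1.05 and 1.05, far below the 7.56 of the first, and QDR1 had 1.20, 1.08 and 1.04. The lower bound that the caller gave for the fold was under 1 in at least 1 library for 13 regions and in all 3 for 3 regions, while it was at least 2 in all 3 for 123.

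Just outside the rule, 27 regions were held by all 3 YPGly lists and 1 YPD list, and their median YPGly fold of 4.39 was above that of the set. YGR067C led them, with 14.0, 14.7 and 13.6 in YPGly and 2.40 in YPD replicate 2 alone. ARO9, an aromatic aminotransferase, had 11.5, 12.2 and 10.3 in YPGly and 4.64 in YPD replicate 1. NHP6B, a DNA-bending chromatin protein, had 9.33, 9.77 and 9.57 in YPGly and 7.68 in YPD replicate 1. At the starts of chromosomes B and A, SAKL0B00121g and SAKL0A00099g had means of 10.1 and 9.70 in YPGly, with 11.8 and 10.9 in YPD replicate 1. In these 2, the single YPD fold was no lower than the YPGly ones.

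On the other side, 83 regions were in 2 YPGly lists and no YPD list, with a median fold of 1.71. Genes were assigned only to regions that all 3 lists of a medium held, so these have none. The 5 strongest had mean folds of 7.80, 4.60, 4.59, 4.23 and 4.08. The strongest, at chromosome H 613916 to 614090 with 8.02 and 7.58 in replicates 2 and 3, directly preceded the YPGly-only region of DFR1 at 614115 to 614304, whose folds were 8.81, 7.71 and 7.22. Replicates 2 and 3 were thus called in both of these regions and replicate 1 only in the second. The called position of the DFR1 region moved by 2 bp between the 3 libraries.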

How the data were processed

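Sef1-TAP ChIP was measured in 3 YPGly and 3 YPD cultures, each with its input. Reads were single-end and, per the study's methods, were mapped by the authors to the CBS 3082 genome before SPP called peaks in every ChIP library separately. Tools named in the submitters' processing notes are Bowtie2 2.3.3 for mapping, Trimmomatic 0.36, FastQC 0.11.8 and DiffBind 2.10.0. An untagged control strain was not analysed here. Each deposited list gives a position, the caller's fold (a ratio of ChIP over input, with a lower bound), a peak height score (a signal) and a q-value, whose −log10 the authors repeat in the interval files. The highest q-value was 0.0498. The lists give no depth per library and the study's methods a nominal one only, and folds depend on how well each precipitation worked.

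Intervals were merged into regions, each with the fold of a library's highest-scoring position there and the mean position as centre. Gene names alone, and whether a centre lies in a coding sequence, were taken from the study's assignment of these regions to the gene with the nearest start codon. The study assigned a gene only where the centre lay within a set distance of that start codon. All 256 regions matched an entry by coordinates, and none of the 307 held by all 3 lists of neither medium did. Coordinates are 1-based.

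Named regions are the 20 of highest mean fold, up to 4 per gene list, the clusters of 3 or more, the 5 of lowest fold and those just outside the rule. Regions and lists were chosen with earlier results of these data known. Regions are not replicates and the rule used both media, so shares have Wilson 95% intervals, which cover counting error only, and no test was run. Region building was tested on simulated lists. No reference sequence was used. Alternatives were a stricter overlap, 2 stricter peak thresholds, lists of equal length, absence by distance, other distances, the lower bound and leaving out each library. Scripts ran under Python 3.11.15 (pandas 2.3.3, numpy 2.4.6, scipy 1.17.1, matplotlib 3.10.9).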

Additional observations from a re-analysis of the deposited data

How the results depend on the processing

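Leaving out 1 library at a time gave 258 to 295 regions, a median fold of 2.21 to 2.42, 46 to 58 with a YPD position within 1000 bp, 131 to 156 with another region of all 3 YPGly lists within 1000 bp and 98 to 120 in clusters. With only peaks whose lower bound of fold was at least 2, the same 5 values were 170, 4.01, 28, 66 and 47. When every list kept only its best 442 positions by score, they were 98, 4.62, 16, 23 and 15. Of the 256 regions, 123 and 95 held the centre of a YPGly-only region under these 2 settings. All 20 of the strongest did, and of the 98 under a fold of 2 none and 1 did. Both settings only remove calls, so which regions stayed follows largely from their YPGly folds and scores. The 123 are as many as the regions whose lower bound was at least 2 in all 3 YPGly libraries. With peaks of a q-value of at most 0.01 the median fold was 2.64. Asking for no YPD position within 500 bp left 30 within 1000 bp. At 500 bp in place of 1000 bp the 3 neighbour counts were 19, 64 and 51, and at 2000 bp the YPD one was 74. The lower bound of the fold had a median of 2.14. With the chromosome C stretch kept, the 5 values were 454, 2.07, 91, 219 and 162. The other 45 of 67 values stayed within 1.5 times (counts) or within 0.187, the SD of the 3 library medians (fold). No paired analysis was possible because no result comes from a test. Because the YPGly lists are longer than the YPD lists and depth per library is unknown, absence of the weak regions from YPD cannot be told apart from lower detection there.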

Other observations

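Several genes had more than 1 of these regions. Of the 214 assigned genes, 32 had at least 2 and 6 had at least 3, and the genes of this paragraph were chosen after their values were seen. The STP4 locus SAKL0H03894g had 4, and MOT3, PDH1, PST1, YIL152W and SHO1 had 3 each. Among those with 2 were GSY1 (glycogen synthase), BDH1 (butanediol dehydrogenase), PMA1 (the proton pump of the plasma membrane), HSP30 (its stress-induced regulator in S. cerevisiae) and ILV6 (a regulatory subunit of acetolactate synthase). At PST1, a cell wall protein, 2 of the 3 regions, with mean folds of 1.44 and 2.14, lay 583 and 733 bp from a region called in all 6 libraries with 3.53 in YPGly and 1.87 in YPD.

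A strong position was called in YPGly replicate 2 alone, at chromosome D 761466 to 761635 with a fold of 21.8. Like every region that all 3 lists of neither medium held, it has no gene in the study's assignment. Of the 125 regions in 1 YPGly list and no YPD list outside the stretch it was the strongest, and the median of these was 1.72. It lay 89 bp before a region called in all 6 libraries at CIT1, the mitochondrial citrate synthase, at 761725 to 761925, whose folds were 75.2, 63.4 and 65.9 in YPGly and 15.0, 13.7 and 15.6 in YPD. On its other side, 292 bp away, a second CIT1 region at 760971 to 761173 had 8.11, 6.40 and 7.62 in YPGly and 2.34 and 2.32 in YPD replicates 1 and 3. Within 10000 bp of a chromosome start, 5 of the 256 regions were found, on chromosomes D, E and H, with mean folds from 1.34 to 9.55.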
